A study of Mus musculus with 96 samples.

Results

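The genes described here are 10 established targets of the hypoxia-inducible factors (HIFs), namely Vegfa, Egln1, Egln3, Bnip3, Ankrd37, Ndrg1, Adm, Kdm3a, P4ha1 and Car9. They were taken by name from a table of 54146 Ensembl genes, and each name matched 1 gene. RNA was sequenced from 96 cultures of C2C12, a mouse muscle cell line, in 35 conditions of which 26 had 3 samples and 9 had 2. Proliferating myoblasts carried a doxycycline-inducible lentiviral transgene and all received doxycycline. The transgene was luciferase (the control), LbNOX (a bacterial water-forming NADH oxidase), mitoLbNOX (the same enzyme sent to mitochondria) or NDI1 (a yeast NADH dehydrogenase). Myotubes were either untransduced or carried an adenovirus for GFP alone or for GFP with LbNOX, and a further set of untransduced cells was taken after 1 day in differentiation medium.

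Treatments lasted 10 h and consisted of the solvent DMSO, piericidin at 0.5 µM (a complex I inhibitor), antimycin at 0.5 µM (complex III) or oligomycin at 1 µM (ATP synthase). Untransduced myotubes also received BAM15 at 0.5 µM, an uncoupler that carries protons across the inner membrane, either alone or with oligomycin, or piericidin together with oligomycin. A set of untransduced myotubes was kept at 5% oxygen from the night before treatment and was given DMSO or oligomycin there. Luciferase and LbNOX myoblasts were in addition treated for 48 h with chloramphenicol at 20 µg/ml, an inhibitor of mitochondrial translation, or with DMSO, and those 48 h cultures had uridine in the medium. Pyruvate and uridine were left out of the medium in the 10 h inhibitor treatments. No myoblast sample was kept at 5% oxygen, so the response to low oxygen was measured only in untransduced myotubes.

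HIFs are pairs of an oxygen-sensitive alpha subunit and the stable partner ARNT. With ample oxygen, prolyl hydroxylases encoded by the Egln genes mark the alpha subunit, the VHL complex binds the marked protein, and it is destroyed. The hydroxylases use molecular oxygen and 2-oxoglutarate, so the alpha subunit accumulates when oxygen in the cell is short. The accumulated factor binds the sequence RCGTG in regulatory DNA (R being A or G). Because respiring mitochondria consume oxygen, respiratory inhibitors and low ambient oxygen both bear on this pathway. The 10 genes cover several arms of the response. Egln1 and Egln3 encode the hydroxylases themselves and form a feedback arm, Vegfa and Adm encode secreted vascular ligands, and Bnip3 encodes an outer-membrane receptor for mitophagy. P4ha1 encodes a subunit of the collagen prolyl 4-hydroxylase, Car9 a cell-surface carbonic anhydrase that handles acid, and Kdm3a a histone H3 lysine 9 demethylase that also requires oxygen. Ndrg1 encodes a stress-responsive protein of the NDRG family and Ankrd37 a small ankyrin-repeat protein.

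The sequences upstream of the members that rose furthest at 5% oxygen and have a RefSeq promoter entry are shown because the letters bound by HIFs can be read in them. RefSeq held an entry on build GRCm38.p6 for 9 members, all but Ndrg1, with 12 start sites in all. Each sequence is the 250 bases before a start site, 5′ to 3′ on the gene's strand, and capitals mark ACGTG or GCGTG on either strand. The windows are Car9 at chr4:43506776-43507025 on the plus strand, Bnip3 at chr7:138909507-138909756 on the minus strand, Ankrd37 at chr8:45999851-46000100 on the minus strand, Adm at chr7:110627407-110627656 on the plus strand and Egln3 at chr12:54203875-54204124 on the minus strand.
Car9: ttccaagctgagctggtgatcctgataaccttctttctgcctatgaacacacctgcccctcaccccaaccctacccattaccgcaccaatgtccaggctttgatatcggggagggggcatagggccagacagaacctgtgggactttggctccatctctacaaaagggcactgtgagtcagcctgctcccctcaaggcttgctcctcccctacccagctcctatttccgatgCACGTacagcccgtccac
Bnip3: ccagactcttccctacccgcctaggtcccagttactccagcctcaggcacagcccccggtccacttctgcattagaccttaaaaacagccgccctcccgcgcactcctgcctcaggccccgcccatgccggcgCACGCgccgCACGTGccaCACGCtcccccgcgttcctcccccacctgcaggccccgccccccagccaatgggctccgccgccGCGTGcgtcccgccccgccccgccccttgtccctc
Ankrd37: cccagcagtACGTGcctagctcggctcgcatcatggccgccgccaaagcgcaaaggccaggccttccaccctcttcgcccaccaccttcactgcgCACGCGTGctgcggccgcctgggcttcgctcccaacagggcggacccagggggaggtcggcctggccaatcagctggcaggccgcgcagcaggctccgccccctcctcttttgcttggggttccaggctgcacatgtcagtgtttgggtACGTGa
Adm: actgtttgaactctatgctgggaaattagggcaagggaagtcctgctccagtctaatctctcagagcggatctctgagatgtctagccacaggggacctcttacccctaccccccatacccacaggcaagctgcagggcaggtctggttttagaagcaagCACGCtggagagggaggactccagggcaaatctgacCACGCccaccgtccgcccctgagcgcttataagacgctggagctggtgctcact
Egln3: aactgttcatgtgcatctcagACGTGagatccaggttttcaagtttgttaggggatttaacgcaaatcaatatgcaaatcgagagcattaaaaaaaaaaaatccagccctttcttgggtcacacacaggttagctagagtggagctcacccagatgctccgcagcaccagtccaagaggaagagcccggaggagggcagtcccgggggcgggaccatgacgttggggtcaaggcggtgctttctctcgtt

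The Bnip3 window held 5 matches, of which 2 were the opposite strands of a single CACGTG, and the Ankrd37 window held 4, of which 2 overlapped on opposite strands. Adm had 2 matches, both to GCGTG on the opposite strand, while Car9 and Egln3 had 1 ACGTG each. A match was present upstream of at least 1 start site in each of the 9 members, and in 9 of the 12 windows. For Vegfa the window at chr17:46032378-46032627 held 0 matches, and the one at chr17:46025164-46025413, inside the annotated gene, held 2. For Kdm3a only 1 window held a match. The shares that follow are per single window, so they do not compare with members that have several windows. Among 32851 RefSeq windows of the same length, 38.6% held ACGTG or GCGTG, 16.6% held ACGTG, 28.2% held GCGTG and 6.02% held CACGTG. These are matches of letters only.

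By the Ensembl annotation of GRCm38, all 10 are protein-coding genes. Car9 lies on chromosome 4 from 43506966 to 43513729, Kdm3a on chromosome 6 from 71588972 to 71632990, Adm on chromosome 7 from 110627661 to 110629820, and Bnip3 on chromosome 7 from 138890836 to 138909519. Ankrd37 lies on chromosome 8 from 45996902 to 46005707, Egln1 on chromosome 8 from 124908587 to 124949324, P4ha1 on chromosome 10 from 59323296 to 59373304, Egln3 on chromosome 12 from 54178981 to 54203860, Ndrg1 on chromosome 15 from 66929318 to 66969640 and Vegfa on chromosome 17 from 46016993 to 46032369. The values are estimated counts per gene, given here as CPM (counts scaled to a common library total, with TMM factors), and levels are compared between samples of a gene and not between genes.

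The libraries held 6458295 to 15366745 estimated counts each, with a median of 10336588.5. Each of the 4 transgenes was detected in every library labelled with it and listed at 0 in all others, although its level differed between treatments in some cells (given with the LbNOX results). Summed over 6 genes, myotube markers lay at 10056 to 13938 CPM in myotubes, at 10656 to 11331 CPM in day 1 cells, and at 10.2 to 92.6 CPM in myoblasts, so they do not separate day 1 cells from myotubes. Of 4 markers of endothelial, blood or epithelial cells, Cdh5, Ptprc and Epcam were at or near 0 (at most 1.00 CPM) and Pecam1 lay between 0.444 and 3.53 CPM. The labels do not say whether the samples of a condition were separate cultures grown on different days, so p-values measure the spread between these samples. In bulk RNA, fewer cells of a type and less RNA per cell cannot be told apart.

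Moving untransduced myotubes to 5% oxygen raised all 10 HIF targets, by 2.07-fold for Kdm3a to 8.58-fold for Car9, and for each of them the lowest 5% oxygen sample lay above the highest standard-oxygen sample. In this comparison 12.3% of 12491 genes were called higher and 9.78% lower (edgeR's quasi-likelihood test, Benjamini-Hochberg adjusted p under 0.05). The median log2 change was 2.12 over the members and 0.02 over all genes. Every call was kept when any single library of the 6 was left out. The plot of levels in untransduced myotubes shows each sample.

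**Figure D1:**
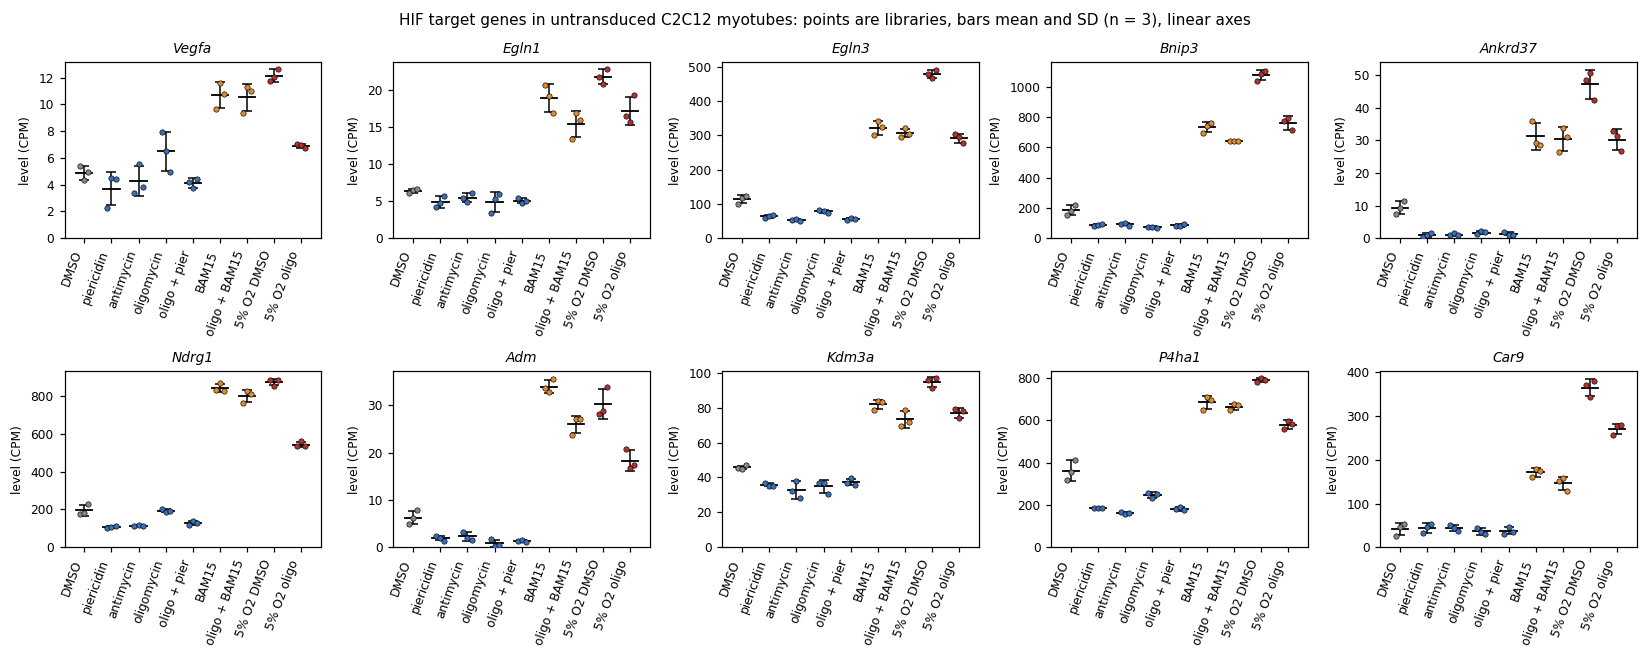
Levels of the 10 HIF target genes in the 9 groups of untransduced myotubes (vertical axis, CPM after TMM scaling on a linear scale; 1 panel per gene). Points are the 3 samples of a group and bars their mean and SD. The groups with 5% oxygen or BAM15 are the 4 highest in every panel, and in all panels but that of Vegfa the fourth does not overlap the fifth.

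Among the hydroxylases, Egln1 was at 6.08, 6.43 and 6.63 CPM in standard oxygen and at 21.7, 20.7 and 22.8 CPM in 5% oxygen, a log2 change of 1.77 ± 0.16 (SE, n = 3 per group, adjusted p = 3.2e-09 in edgeR). Egln3 went from 100.1, 116 and 123 CPM to 479, 466 and 492 CPM, a change of 2.08 ± 0.07. Both feedback genes thus stood above 3 times their standard-oxygen level. The third family member, Egln2, which is not a member here, changed by -0.27 ± 0.22 (adjusted p = 0.43).

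Bnip3 was at 151, 182 and 219 CPM in standard oxygen and at 1042, 1087 and 1108 CPM in 5% oxygen, a log2 change of 2.55 ± 0.09 (edgeR adjusted p = 2.5e-16). The largest change belonged to Car9, which rose from 26.9, 47.0 and 53.2 CPM to 371, 343 and 381 CPM (3.10 ± 0.19, adjusted p = 4.7e-12). P4ha1 rose from 318, 354 and 415 CPM to 781, 801 and 792 CPM (1.13 ± 0.06), and Kdm3a from 45.4, 44.9 and 46.9 CPM to 95.7, 91.5 and 96.8 CPM (1.05 ± 0.08). P4ha1 and Kdm3a showed the smallest log2 changes of the 10.

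The ligand Vegfa rose from 5.36, 4.35 and 4.93 CPM to 11.7, 12 and 12.7 CPM (1.32 ± 0.20, edgeR adjusted p = 1.8e-05). Adm rose from 4.85, 6.25 and 7.77 CPM to 28.2, 28.8 and 33.9 CPM (2.26 ± 0.21). For Ankrd37 the values were 7.32, 9.33 and 11.5 CPM against 48.6, 50.6 and 42.3 CPM (2.32 ± 0.18), and for Ndrg1 178, 179.8 and 227 CPM against 885, 851 and 880.3 CPM (2.16 ± 0.07). The groups did not overlap for any of these genes, including those at a few CPM.

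Further lists of the pathway were counted in the same comparison. Of 15 glycolytic HIF targets, 14 were called higher and 0 lower, with a median log2 change of 1.31. Pdk1, the kinase that shuts off pyruvate dehydrogenase, changed by 1.90 ± 0.08, Pfkfb3 by 1.87 ± 0.20 and the glycolytic kinase Pgk1 by 1.75 ± 0.06, whereas Pfkfb4 gave 0.35 (adjusted p = 0.21). Among 21 other targets tested, 20 were higher and 0 lower (median 1.44). They were led by the adenylate kinase Ak4 at 2.85 ± 0.20, the carbonic anhydrase Car12 at 2.83 ± 0.27 and Ero1l, an oxidase of the endoplasmic reticulum, at 2.32 ± 0.10. Of 7 tested genes of the oxygen-sensing machinery, Vhl (0.59 ± 0.10) and the HIF antagonist Cited2 (0.95 ± 0.20) were higher, and Hif1a itself gave -0.05 ± 0.24 (adjusted p = 0.92).

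Markers of cell state moved with the oxygen comparison. The 6 markers of proliferating cells summed to 148.5 to 185 CPM in the standard-oxygen DMSO myotubes and to 24.4 to 31.5 CPM at 5% oxygen, and all 6 were called lower. The 3 markers of undifferentiated cells went from 35.3 to 49.6 CPM to 22.4 to 24.9 CPM, with 1 called lower. With oligomycin the proliferating sum was 149.8 to 163 CPM in standard and 27.9 to 29.7 CPM at 5% oxygen, and the undifferentiated sum 57.98 to 59.8 and 30.7 to 33.6 CPM. In BAM15 myotubes, where the members also rose, the proliferating sum was 121 to 144 CPM, below every DMSO sample, and 2 of 6 markers were called lower. With antimycin it was 118 to 128 CPM, and 3 of 6 were lower. With piericidin it was 142 to 148 CPM with 0 of 6 called, and the undifferentiated sum was 51.3 to 54.7 CPM. The summed myotube markers, at 10956 to 11280 CPM with DMSO, lay higher without overlap in each of the other 8 groups, at 12485 to 13938 CPM, although single markers were called in both directions (2 higher and 3 lower with piericidin and with antimycin). The part of these markers in the member results was not tested.

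In standard oxygen, the 3 inhibitors moved most members the other way. Piericidin lowered 7 of 10 members and raised 0, beside 4.84% of all genes called lower and 4.15% higher. Antimycin likewise lowered 7 and raised 0 (6.27% lower and 6.64% higher among all genes), and oligomycin lowered 6 and raised 0 (16.4% lower and 16.9% higher). The 3 comparisons share the same DMSO samples, so they are not independent of each other. Counts of called members were 7, 7 and 6 to 8 when any 1 library was left out.

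Ankrd37 and Adm fell furthest. Ankrd37, at 7.32 to 11.5 CPM with DMSO, read 0.483, 1.12 and 1.67 CPM with piericidin, 0.898, 1.49 and 0.988 CPM with antimycin and 1.21, 2.13 and 1.82 CPM with oligomycin. The log2 changes were -2.96 ± 0.27, -3.02 ± 0.25 and -2.43 ± 0.24, and in each case no treated sample came near the DMSO samples. Adm, at 4.85 to 7.77 CPM with DMSO, read 2.42, 2.04 and 1.41 CPM with piericidin, 3.32, 1.91 and 1.65 CPM with antimycin and 1.68, 0.341 and 0.574 CPM with oligomycin. Its changes were -1.73 ± 0.29, -1.41 ± 0.26 and -2.87 ± 0.32 (edgeR adjusted p = 2.0e-04, 4.6e-04 and 1.0e-07). A treated library held between 3 and 48 counts of either gene, which limits how precisely the treated level is known.

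Bnip3 read 81.3, 87.8 and 93.5 CPM with piericidin, 97.0, 98.4 and 83.6 CPM with antimycin and 73.7, 76.3 and 64.3 CPM with oligomycin, all below the lowest DMSO sample at 151 CPM. P4ha1 fell by 0.95 ± 0.06, 1.14 ± 0.06 and 0.54 ± 0.06 on the log2 scale with piericidin, antimycin and oligomycin. Egln3 fell by 0.83 ± 0.07, 1.08 ± 0.07 and 0.52 ± 0.07, and Kdm3a by 0.35 ± 0.09, 0.46 ± 0.08 and 0.39 ± 0.08. Ndrg1 separated the drugs, since it fell by 0.86 ± 0.07 with piericidin and by 0.77 ± 0.07 with antimycin but gave -0.01 ± 0.07 with oligomycin (205, 186 and 191 CPM against 178, 179.8 and 227 CPM).

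Vegfa, Egln1 and Car9 were not called with any of the 3 inhibitors. For Car9 the log2 values were 0.09 ± 0.20, 0.04 ± 0.19 and -0.20 ± 0.20, and the treated and DMSO samples overlapped each time. Vegfa gave -0.34 ± 0.22, -0.18 ± 0.21 and 0.42 ± 0.21, again with overlapping samples. Egln1 gave -0.37 ± 0.17, -0.23 ± 0.17 and -0.39 ± 0.17, and every treated sample was below the lowest DMSO sample. Without replicate 3 of the oligomycin group, Vegfa was called higher (adjusted p = 0.044) and Egln1 lower (adjusted p = 0.025) with oligomycin.

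The wider lists followed in part. With piericidin, antimycin and oligomycin, 13, 13 and 12 of 15 glycolytic targets were lower, and Pfkl, Pfkfb3 and the lactate exporter Slc16a3 were in the lead (with piericidin -1.75 ± 0.08, -2.13 ± 0.27 and -1.63 ± 0.12). Hexokinase 2 (Hk2) went against the list and rose by 0.65 ± 0.09, 0.76 ± 0.09 and 1.73 ± 0.09. Of the 21 other targets, 14, 14 and 16 were lower, among them Ak4 at -2.29 ± 0.29, -2.45 ± 0.27 and -3.03 ± 0.30.

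The uncoupler BAM15 raised all 10 members in standard oxygen, beside 13.2% of all genes called higher and 12.2% lower. Adm read 33.6, 32.7 and 35.4 CPM, its highest level in the whole series (2.43 ± 0.21, edgeR adjusted p = 4.1e-09). Ndrg1 read 828, 866 and 825 CPM (2.11 ± 0.07), close to its level at 5% oxygen, and Bnip3 698, 745 and 759.5 CPM (2.00 ± 0.09). Car9 read 160.1, 179 and 174 CPM (2.02 ± 0.19), which was under all 5% oxygen samples. Smaller log2 changes were those of Kdm3a (0.85 ± 0.08), P4ha1 (0.93 ± 0.06) and Vegfa (1.14 ± 0.20). Of the glycolytic targets 14 of 15 were higher, and of the other targets 17 of 21 were, with Slc2a1, the glucose transporter, at 1.68 ± 0.09. All 10 calls held with any single library left out.

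Adding BAM15 to oligomycin raised all 10 members over oligomycin alone, where 12% of all genes were higher and 14.1% lower. Adm rose from 1.68, 0.341 and 0.574 CPM to 23.8, 27 and 27 CPM (4.90 ± 0.28), and Ankrd37 from 1.21, 2.13 and 1.82 CPM to 26.4, 33.8 and 31.0 CPM (4.12 ± 0.22). Adm and Ankrd37 did not meet the count minimum with oligomycin alone, so their rises were partly built into their being tested. Vegfa showed the smallest change, 0.69 ± 0.19 (adjusted p = 9.1e-03), and lost its call without replicate 3 of the oligomycin group (adjusted p = 0.065). Adding piericidin to oligomycin lowered 4 members relative to oligomycin alone and raised 0, beside 12.4% of genes lower and 8.46% higher. Those were Vegfa (-0.66 ± 0.21), Egln3 (-0.51 ± 0.07), Ndrg1 (-0.61 ± 0.07) and P4ha1 (-0.45 ± 0.06). The Vegfa call was lost without any 1 of 4 libraries, replicates 1 and 2 of oligomycin (adjusted p = 0.15 and 0.061) and replicates 1 and 2 of the combination (0.058 and 0.095), and also with no filter on low counts (0.09997), with outer wells in the fit (0.082) and with only the groups compared (0.086). With no filter Bnip3 (0.23 ± 0.10) was called higher (0.0012). Ankrd37 and Adm, already low with oligomycin, gave -0.34 ± 0.32 and 0.64 ± 0.40 (adjusted p = 0.52 and 0.31), although Adm was called higher without oligomycin replicate 1 (0.015).

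At 5% oxygen, oligomycin still lowered 8 of the 10 members against DMSO and raised 0, where 2.22% of all genes were lower and 2.04% higher. The remaining pair, Egln1 and Car9, gave -0.33 ± 0.14 and -0.41 ± 0.17 (adjusted p = 0.26 and 0.23), and Car9 was called lower with no filter (1.6e-07) and with only the groups compared (0.0057). All 10 genes had treated samples below every DMSO sample. Egln3 read 303, 294 and 276 CPM with oligomycin and Ndrg1 533, 558 and 535 CPM, log2 changes of -0.70 ± 0.07 and -0.67 ± 0.07. The weaker calls depended on single libraries. The count was 5 without replicate 1, 2 or 3 of the 5% oxygen DMSO group, 6 without replicate 1 of the 5% oxygen oligomycin group and 4 without its replicate 2 or 3, and Egln3, Bnip3, Ndrg1 and P4ha1 were the members called in all of these.

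Compared at equal oligomycin, 5% oxygen raised 9 of 10 members (16.7% of all genes higher and 16.5% lower). Vegfa was the exception, at 7.01, 7.0 and 6.71 CPM against 7.93, 6.56 and 4.98 CPM (0.10 ± 0.20, adjusted p = 0.74). The effect of oxygen differed between the DMSO and oligomycin arms for 5 members by the interaction term in edgeR, beside 17.4% of all genes. It was larger with oligomycin for Adm (2.15 ± 0.38), Ankrd37 (1.81 ± 0.29) and Bnip3 (0.88 ± 0.13), and smaller for Vegfa (-1.21 ± 0.28) and Ndrg1 (-0.66 ± 0.09). Adm and Ankrd37 met the count minimum only in groups where they are high, so their terms were partly built into their being tested. By arithmetic this term is also the oligomycin effect at 5% oxygen minus that in standard oxygen. A large fall in standard oxygen therefore adds to a positive term and is no separate result. Adm, Ankrd37 and Bnip3 fell there by a log2 value over 1, whereas Vegfa and Ndrg1 were not lowered.

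Integrated stress response (ISR) markers, a program driven by ATF4 that raises amino acid and stress genes, moved in the same samples. All 8 rose with oligomycin in standard oxygen (Atf3 5.62 ± 0.16, Ddit3 4.06 ± 0.08, Trib3 4.66 ± 0.09, Gdf15 4.57 ± 0.20, Ppp1r15a 3.23 ± 0.07, Sesn2 2.34 ± 0.11, Chac1 2.21 ± 0.09 and Asns 1.58 ± 0.06). All 8 were lower at 5% oxygen than in standard oxygen under oligomycin, by -3.61 ± 0.14 for Atf3 and -2.73 ± 0.08 for Ddit3. They were also higher where the members rose, all 8 with BAM15 (median log2 change 1.68) and 6 of 8 at 5% oxygen in DMSO (0.42), and where the members fell, all 8 with antimycin (0.90) and 4 with piericidin (0.25). Their summed level was 198 to 206 CPM in DMSO myotubes, 420.3 to 457 CPM with BAM15, 236 to 245 CPM at 5% oxygen, 359.95 to 373 CPM with antimycin, 233 to 239 CPM with piericidin, 1543 to 1578 CPM with oligomycin, 349 to 397 CPM with oligomycin at 5% oxygen and 547 to 617 CPM with oligomycin and BAM15. Its part in the member values was not tested.

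**Figure D2:**
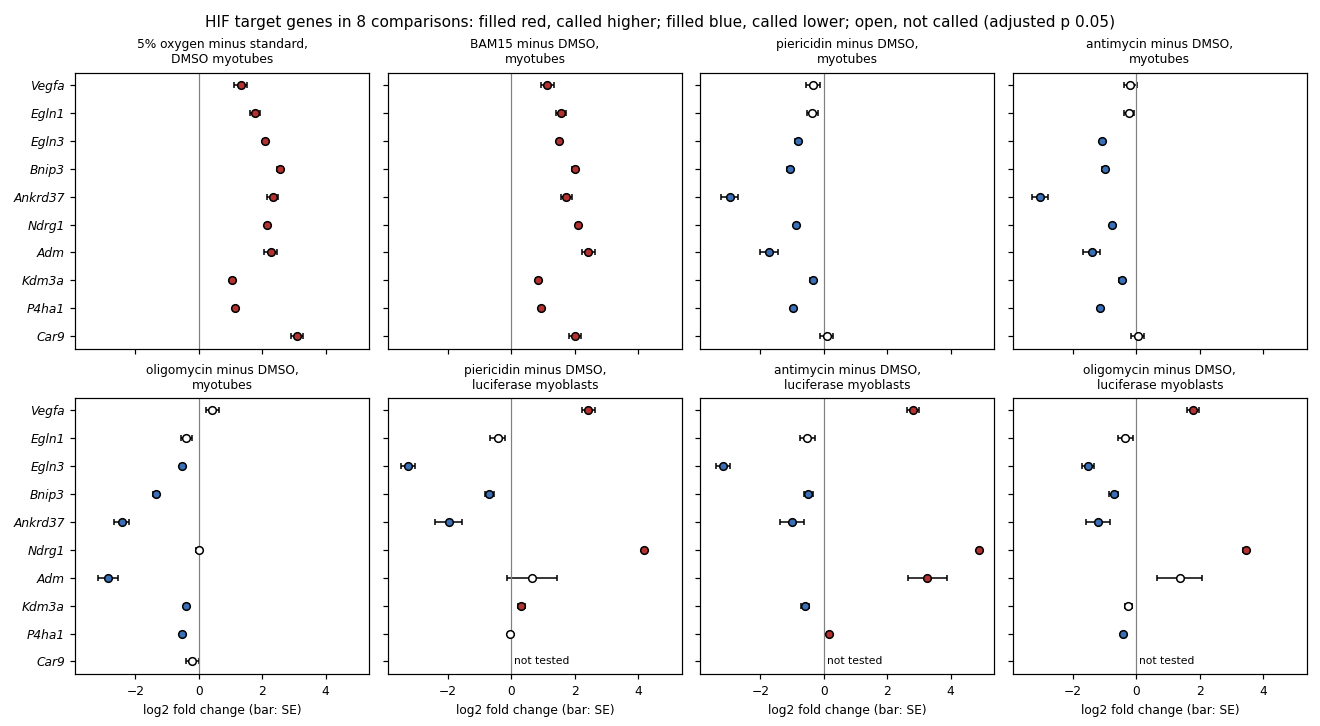
Log2 fold changes of the HIF target genes (horizontal axis) in 8 comparisons, with error bars of 1 SE from edgeR. Filled colours mark members called higher or lower at an adjusted p under 0.05 and open points those not called; all 10 lie to the right for 5% oxygen and BAM15 in myotubes, and the luciferase myoblast panels spread to both sides.

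In myotubes carrying adenoviral GFP, piericidin lowered 6 members and raised 0 (1.63% and 1.45% of all genes), and oligomycin lowered 6 and raised 0 (11.8% and 14%). Both groups had 2 samples. P4ha1 went from 346 and 356 CPM with DMSO to 149.7 and 161 CPM with piericidin (-1.18 ± 0.05, edgeR adjusted p = 2.1e-08), and Bnip3 from 229.5 and 253 CPM to 107 and 138 CPM (-0.98 ± 0.14). The count with piericidin fell to 4 without replicate 1 of the DMSO group or without replicate 2 of the piericidin group, as Ankrd37 (adjusted p = 0.080 and 0.10) and Kdm3a (0.086 and 0.10) lost their calls. With only the groups compared, Egln3 (0.065), Bnip3 (0.068), Ankrd37 (0.106) and Kdm3a (0.141) lost theirs, where 0.225% of all genes were called. Adm with oligomycin read 0.308 and 0.973 CPM against 6.14 and 6.57 CPM with DMSO. In the fit of transduced myotubes Adm met the count minimum with DMSO and piericidin but not with oligomycin. Its oligomycin differences were thus partly built into its being tested.

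With GFP and LbNOX together, piericidin lowered 7 members and raised 0 (3.37% and 3.4% of all genes) and oligomycin lowered 8 and raised 0 (14.5% and 17.2%). Ndrg1 read 289, 329 and 268 CPM with DMSO, 94.0, 94.5 and 95.5 CPM with piericidin and 192, 181 and 186 CPM with oligomycin, log2 changes of -1.64 ± 0.07 and -0.67 ± 0.07. Egln1 was lower with oligomycin (3.56, 3.38 and 3.33 CPM against 7.65, 9.17 and 8.10 CPM, -1.28 ± 0.20). Every member that was lower in untransduced myotubes with oligomycin was lower here as well, together with Ndrg1 and Egln1. Car9 gave -0.58 ± 0.23 (adjusted p = 0.065) and was called lower with no filter (1.3e-08), under the replicate block (0.032), with outer wells (0.040), with only the groups compared (0.0071) and without DMSO replicate 3 (0.037). The LbNOX transcript in these myotubes read 7410 to 7751 CPM with DMSO, 5709 to 6197 CPM with piericidin and 11882 to 11903 CPM with oligomycin.

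Marker sums moved in the transduced myotubes as well. From DMSO to oligomycin the ISR markers went from 173 to 176 CPM to 1974 to 1990 CPM in GFP cells and from 171 to 179 CPM to 1796 to 1866 CPM in LbNOX cells, and with piericidin they read 259.7 to 273 and 259.997 to 273 CPM. The undifferentiated markers went from 39.6 to 47.98 CPM to 64.7 to 65.1 CPM with oligomycin in GFP cells, and from 37.3 to 45.8 CPM to 59.8 to 62.4 CPM in LbNOX cells. With piericidin the undifferentiated markers read 54.0 to 54.7 CPM in GFP cells and 54.8 to 62.5 CPM in LbNOX cells. The summed myotube markers were higher with piericidin, going from 10056 to 10465 CPM to 12257 to 13166 CPM in GFP cells and from 10121 to 10759 CPM to 12796 to 13435 CPM in LbNOX cells. They were also higher with oligomycin, at 11630 to 11849 CPM in GFP cells and 11468 to 12067 CPM in LbNOX cells. Their part in the member values was not tested.

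Without an inhibitor, LbNOX myotubes lay above GFP myotubes for all 10 members, with a median log2 difference of 0.53, but only Ndrg1 passed the test (0.61 ± 0.08, edgeR adjusted p = 0.031). It was the only gene called of 12395, so that 0.00807% of all genes passed. Ndrg1 read 289, 329 and 268 CPM with LbNOX against 189.9 and 197 CPM with GFP, and Bnip3, at 362, 389 and 329 CPM against 229.5 and 253 CPM, gave 0.58 ± 0.13 (adjusted p = 0.40). The unadjusted p was under 0.05 for 7 members. The eGFP transcript differed between these arms, at 7135 to 7603 CPM in GFP cells and 2310 to 2471 CPM in LbNOX cells with DMSO. Its part in the member values was not tested. The Ndrg1 call was lost without replicate 1 or 2 of the GFP group (adjusted p = 0.96 and 0.45) or replicate 1 or 2 of the LbNOX group (0.12 and 0.099), and with only the groups compared (0.36) or the replicate block (0.061). DESeq2 called 4 members, beside 0.303% of the 4945 genes it tested, and edgeR with no filter on low counts called 4, beside 0.481% of 38266.

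In luciferase myoblasts the same inhibitors split the members. Piericidin raised 3 of 9 tested members and lowered 3 (30.9% of all genes higher and 30.8% lower), antimycin raised 4 and lowered 4 (32.1% and 31.1%) and oligomycin raised 2 and lowered 4 (24.5% and 26.3%). With so large a part of all genes called, these counts say little about the members as a group, and the values of single genes are given instead. Car9 was under the count minimum in every myoblast group and was not tested there. Adm passed that minimum only through the antimycin group of luciferase myoblasts, so a difference of that group from DMSO was built into its being tested.

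Ndrg1 rose furthest. It read 27.3, 34.2 and 33.8 CPM with DMSO, 550.3, 588 and 569.9 CPM with piericidin, 908, 923 and 911 CPM with antimycin and 345, 348 and 339 CPM with oligomycin. The folds were 18.3 for piericidin and 29.6 for antimycin (log2 4.20 ± 0.07 and 4.89 ± 0.07), and oligomycin gave 3.45 ± 0.07. The antimycin samples were the highest for this gene in the series, above the 851 to 885 CPM of 5% oxygen myotubes. Vegfa read 4.93, 3.75 and 4.74 CPM with DMSO, 26.7, 20.0 and 23.7 CPM with piericidin, 26.8, 32.9 and 31.3 CPM with antimycin and 16.3, 16.5 and 12.8 CPM with oligomycin. Its changes were 2.43 ± 0.19, 2.81 ± 0.19 and 1.79 ± 0.19 (edgeR adjusted p = 3.4e-12, 1.1e-13 and 4.4e-09). All 9 treated samples of Vegfa lay above the 11.7 to 12.7 CPM of 5% oxygen myotubes. The cells differ in state, transgene and medium, and no test was made across them.

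Egln3 fell in the same samples. It read 31.3, 24.3 and 27.2 CPM with DMSO, 3.41, 3.20 and 1.90 CPM with piericidin, 3.96, 3.07 and 1.73 CPM with antimycin and 9.11, 13.2 and 6.12 CPM with oligomycin (-3.24 ± 0.22, -3.17 ± 0.22 and -1.51 ± 0.19). Ankrd37 fell too, from 1.86, 2.55 and 1.86 CPM to at most 1.14 CPM in any treated sample (-1.97 ± 0.42, -1.0 ± 0.38 and -1.21 ± 0.38). Its call with antimycin was lost without DMSO replicate 2 (adjusted p = 0.094) or antimycin replicate 3 (0.080), and with no filter on low counts the Ankrd37 calls with antimycin (0.12) and oligomycin (0.055) were both lost. Bnip3 fell by 0.69 ± 0.14, 0.49 ± 0.14 and 0.71 ± 0.14, and with antimycin its adjusted p was 0.056 when outer wells of the plate entered the fit. Outer wells were inferred from a position code in each sample's description, and are not known to be wells of the culture plate. By this reading all 3 luciferase DMSO samples were in outer wells and all 3 antimycin samples in inner wells.

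**Figure D3:**
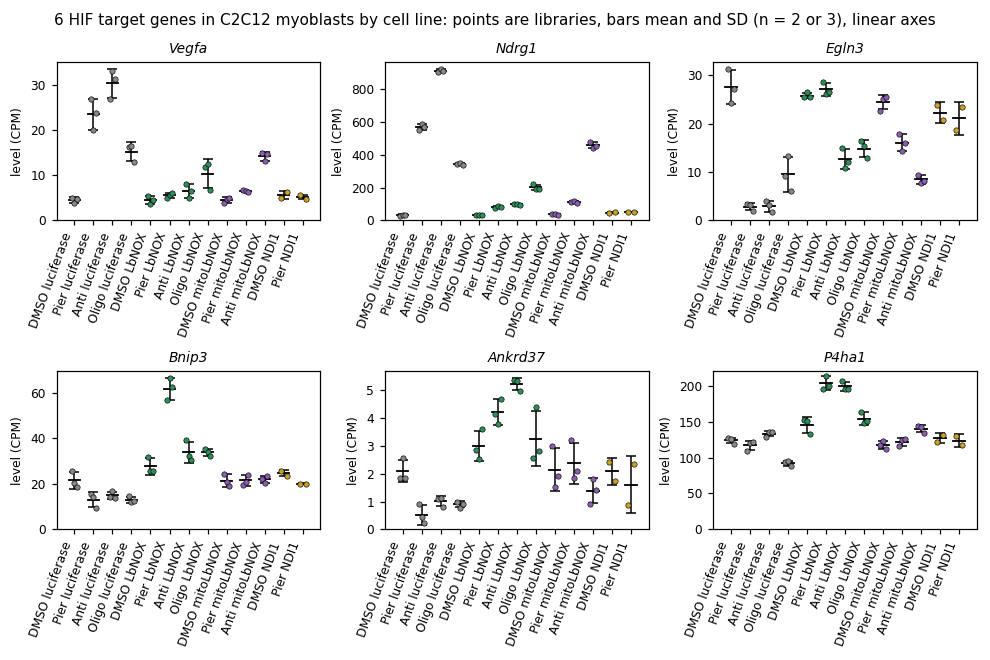
Levels of 6 HIF target genes in the 13 myoblast groups treated for 10 h (vertical axis, CPM after TMM scaling on a linear scale). Points are samples (3 per group, 2 for NDI1) and bars the mean and SD. Vegfa and Ndrg1 are highest with antimycin in luciferase cells, Egln3 is lowest there with piericidin or antimycin, and the piericidin and DMSO groups of NDI1 cells lie close together.

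Smaller log2 changes were measured for Kdm3a, P4ha1 and Egln1. Kdm3a gave 0.32 ± 0.11 with piericidin, -0.59 ± 0.12 with antimycin and -0.25 ± 0.12 with oligomycin (edgeR adjusted p = 0.015, 8.8e-05 and 0.068). The piericidin call was lost without DMSO replicate 2 or 3 (adjusted p = 0.058 and 0.053) and with no filter on low counts (0.19). P4ha1 gave -0.05 ± 0.05, 0.15 ± 0.05 and -0.42 ± 0.05, and the rise with antimycin was lost without DMSO replicate 3 (adjusted p = 0.055), with only the groups compared (0.055) and with no filter (0.35). Egln1 was not called in any of the 3 (-0.42 ± 0.24, -0.52 ± 0.24 and -0.34 ± 0.23), except with piericidin when replicate 2 of that group was left out (adjusted p = 0.0088). Leaving out oligomycin replicate 1 or 2 made Kdm3a lower with oligomycin (adjusted p = 0.034 and 0.045), and leaving out DMSO replicate 1 or oligomycin replicate 2 made Adm higher with it (0.0085 and 0.016). Adm with antimycin read 2.67, 2.61 and 2.20 CPM against 0.651, 0.0708 and 0.0929 CPM with DMSO, a log2 change of 3.27 ± 0.62 that rests on 1 to 7 counts per DMSO library and on the group through which it was tested.

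The other lists were split as well. Of 15 glycolytic targets 4 were higher and 10 lower with piericidin, 4 and 7 with antimycin, and 3 and 8 with oligomycin. Hk2 (2.45 ± 0.10 with piericidin and 3.25 ± 0.11 with antimycin) and Slc2a1 (1.68 ± 0.08 and 2.58 ± 0.08) rose furthest. Ero1l (3.49 ± 0.16 and 2.97 ± 0.15) and Ddit4, an inhibitor of mTORC1, (2.51 ± 0.35 and 2.75 ± 0.34) were among the other targets that rose, while P4ha2 and Bnip3l fell in both (Bnip3l -0.71 ± 0.07 and -0.77 ± 0.07). All 8 ISR markers rose with each inhibitor, with medians of 4.73, 5.0 and 3.58, and their summed level was 249.9 to 263 CPM with DMSO and 2526 to 2649, 3353 to 3420 and 1662 to 1726 CPM with the 3 inhibitors. Markers of cell state moved in these samples too. The proliferating cell markers summed to 1536 to 1574 CPM with DMSO, 1011 to 1094 CPM with piericidin, 770.1 to 800.1 CPM with antimycin and 1062 to 1111 CPM with oligomycin, and 5, 6 and 5 of the 6 were called lower. The 3 markers of undifferentiated cells went from 497 to 509 CPM with DMSO to 207 to 229, 357 to 382 and 152 to 167 CPM. The 6 myotube markers went from 17.3 to 21.6 CPM to 26.7 to 33.01, 83.6 to 92.6 and 22.4 to 30.9 CPM. The part of any of these lists in the member values was not tested.

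LbNOX oxidises NADH in the cytosol, and several responses differed in cells that carried it. In LbNOX myoblasts piericidin raised 4 of 9 members and lowered 0 (5.01% of genes higher, 3.87% lower), antimycin raised 5 and lowered 2 (23.3% and 22.9%) and oligomycin raised 2 and lowered 1 (17.5% and 17.7%). Ndrg1 read 31.6, 32.3 and 33.2 CPM with DMSO and 74.7, 84.3 and 80.2 CPM with piericidin (1.32 ± 0.06), against the 550.3 to 588 CPM of luciferase cells. Egln3 read 28.7, 26.1 and 26.5 CPM with piericidin against 25.4, 26.4 and 25.5 CPM with DMSO (0.10 ± 0.17, adjusted p = 0.80). Bnip3, by contrast, rose with piericidin from 32.0, 25.7 and 25.5 CPM to 56.8, 66.4 and 62.5 CPM (1.18 ± 0.13, edgeR adjusted p = 7.0e-08), and P4ha1 rose by 0.51 ± 0.05. Vegfa with piericidin gave 0.36 ± 0.21 (adjusted p = 0.32).

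The difference of each effect between LbNOX and luciferase cells was tested by the interaction term. With piericidin 6 of 9 members differed (44.3% of all genes did), with antimycin 8 (51.5%) and with oligomycin 3 (7.98%). The 8 include Adm, which was tested only because it is high in the antimycin group of luciferase cells. For piericidin the terms were -2.87 ± 0.09 for Ndrg1, -2.08 ± 0.28 for Vegfa, 3.34 ± 0.28 for Egln3, 2.49 ± 0.53 for Ankrd37, 1.88 ± 0.19 for Bnip3 and 0.55 ± 0.07 for P4ha1. With oligomycin they were smaller for Ndrg1 (-0.78 ± 0.09), and Vegfa (-0.54 ± 0.28) and Egln3 (0.73 ± 0.26) were not called (edgeR adjusted p = 0.28 and 0.082), although Egln3 was called without oligomycin replicate 2 of the luciferase group (0.0083) and by DESeq2 (0.040). Ndrg1 with oligomycin still reached 219, 193 and 194 CPM in LbNOX cells. The antimycin calls within LbNOX cells depended on single libraries, with 3 left without DMSO replicate 2 and 4 without antimycin replicate 1. Among them Bnip3 (0.33 ± 0.13) was also lost with no filter (adjusted p = 0.13) and with only the groups compared (0.054), Ankrd37 (0.84 ± 0.31) with no filter (0.22), and Vegfa (0.62 ± 0.21) with only the groups compared (0.077). The piericidin call of Kdm3a in LbNOX cells (0.35 ± 0.11, adjusted p = 0.048) was lost without 5 of the 6 libraries, DMSO replicate 2 being the exception, and under the 4 settings of no filter, DESeq2, its size factors and only the groups compared (0.0526 to 0.32). The LbNOX transcript itself lay at 872 to 928 CPM with DMSO, 816 to 1063 CPM with piericidin and 789 to 979 CPM with oligomycin, but at 226 to 319 CPM with antimycin. Luciferase in its own cells went from 179 to 190.3 CPM with DMSO to 83.6 to 108 CPM with antimycin. It read 217 to 272 CPM with piericidin and 95.0 to 132 CPM with oligomycin. The ISR markers summed to 619 to 671 CPM with antimycin and 479.6 to 497 CPM with piericidin in LbNOX cells, below the luciferase cells. With DMSO, piericidin, antimycin and oligomycin in turn, the proliferating markers summed to 1528 to 1567, 1255 to 1357, 897 to 922 and 1112 to 1198 CPM in LbNOX cells, and the undifferentiated markers to 516 to 539, 397 to 408, 194 to 215 and 249.9 to 264 CPM. The part of these levels in the antimycin, piericidin and oligomycin terms was not tested.

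MitoLbNOX acts on NADH inside mitochondria. There piericidin raised only Ndrg1 and lowered only Egln3 (6.37% of genes higher, 4.83% lower), and antimycin raised 4 members and lowered 1 (24.8% and 22.9%). Ndrg1 went from 38.5, 39.9 and 34.3 CPM to 109, 119 and 104 CPM with piericidin (1.58 ± 0.06) and to 477, 439.9 and 456 CPM with antimycin (3.65 ± 0.07). Vegfa read 6.61, 6.38 and 6.34 CPM with piericidin and 14.8, 13.1 and 14.6 CPM with antimycin, against 3.74, 4.79 and 4.87 CPM with DMSO (0.55 ± 0.20, adjusted p = 0.077, and 1.71 ± 0.19). Egln3 gave -0.58 ± 0.18 with piericidin, a call that was lost without DMSO replicate 2 or 3 or piericidin replicate 2 or 3 (adjusted p = 0.078, 0.081, 0.12 and 0.074), and -1.49 ± 0.19 with antimycin. Adm, tested here only through antimycin-treated luciferase cells, is among the 4 (1.48 ± 0.55, adjusted p = 0.028), and its call was lost without DMSO replicate 2 or 3 (0.10 and 0.0504), without antimycin replicate 1 (0.073) and with no filter (0.20). The interaction with luciferase was called for 5 of 9 members with piericidin (42.9% of genes) and for 5 with antimycin (31.7%). For Ndrg1 it was -2.62 ± 0.09 with piericidin and -1.24 ± 0.09 with antimycin. The LbNOX transcript of these cells read 1717 to 1968 CPM with DMSO, 1629 to 1854 CPM with piericidin and 714 to 848 CPM with antimycin, and with the same treatments in turn the ISR markers summed to 297 to 319, 736 to 783 and 1998 to 2102 CPM, the proliferating markers to 1428 to 1563, 1230.1 to 1298 and 845 to 869.8 CPM and the undifferentiated markers to 506 to 514, 348 to 356 and 244 to 265 CPM. The part of these levels in the member values was not tested.

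NDI1 can pass electrons around a blocked complex I. In NDI1 myoblasts piericidin changed 0 of 9 members by edgeR, with 0 at an unadjusted p under 0.05, and 1 gene of 11978 was called in all (0.00835%). DESeq2 also called 0 members. Ndrg1 read 45.3 and 48.3 CPM with DMSO and 49.7 and 48.9 CPM with piericidin (0.10 ± 0.08). Egln3 read 23.8 and 20.7 CPM against 18.6 and 23.5 CPM (-0.05 ± 0.21). With 2 samples a group, smaller changes than these standard errors allow were not detectable.

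In DMSO, LbNOX and luciferase myoblasts differed in P4ha1 only (0.23 ± 0.05, adjusted p = 8.2e-03, where 2.66% of all genes were called), and this call was lost without luciferase replicate 3 or LbNOX replicate 1 or 2 (adjusted p = 0.062, 0.081 and 0.067). MitoLbNOX and luciferase myoblasts differed in 0 members by edgeR (1.74% of genes), although 2 members had an unadjusted p under 0.05. Ndrg1 was nearest at 0.24 ± 0.07 (adjusted p = 0.053), and 1 member, Ndrg1, was called without luciferase replicate 2 or 3 or mitoLbNOX replicate 3 (adjusted p = 0.024, 0.036 and 0.028). DESeq2 called 0 members there.

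Chloramphenicol for 48 h raised 2 and lowered 2 of 8 tested members in luciferase myoblasts (4.83% of genes higher, 3.62% lower), with 2 samples a group. Ndrg1 went from 43.2 and 49.9 CPM to 117 and 120.1 CPM (1.40 ± 0.11, edgeR adjusted p = 8.5e-05). Kdm3a gave 0.50 ± 0.13, Egln3 -0.62 ± 0.13 and P4ha1 -0.31 ± 0.06 (adjusted p = 0.047, 0.023 and 0.021). Ndrg1 alone was called without DMSO replicate 2 or chloramphenicol replicate 1, and 2 members were called without chloramphenicol replicate 2. The Kdm3a call held in the reported fit alone, being lost without any 1 of the 4 libraries and under each of the other 6 settings tried (adjusted p = 0.0501 to 0.22). Those of Egln3 and P4ha1 were also lost with outer wells in the fit (0.064 and 0.055) and with only the groups compared (0.066 and 0.057). In LbNOX cells Ndrg1 was the single member called (76.7 and 71.8 CPM against 43.9 and 54.9 CPM, 0.62 ± 0.11, adjusted p = 0.038), beside 0.675% of genes higher and 0.256% lower, and this was lost without DMSO replicate 1 or chloramphenicol replicate 1 or 2 (adjusted p = 0.093, 0.31 and 0.20). Marker sums moved as well. In luciferase cells the ISR markers went from 219.5 to 228 CPM to 803 to 874 CPM, the proliferating markers from 1561 to 1656 CPM to 1343 to 1359 CPM and the undifferentiated markers from 642 to 649.8 CPM to 445 to 457 CPM. In LbNOX cells the ISR markers went from 228 to 255 CPM to 447 to 448 CPM. The proliferating markers there went from 1568 to 1572 CPM to 1425 to 1510 CPM, and the undifferentiated markers from 629.9 to 659.3 CPM to 476.4 to 486.8 CPM. Their part in the member values was not tested. The interaction was called for P4ha1 (0.55 ± 0.09, adjusted p = 0.043, with 0.53% of all genes called), and was lost without any single library of the 8 and under the replicate block (adjusted p = 0.089). For Ndrg1 it was -0.78 ± 0.15 (adjusted p = 0.088), and this was called with no filter (9.4e-05), by DESeq2 (0.0019), with outer wells in the fit (0.014) and without LbNOX DMSO replicate 1 (0.047). For Bnip3 it was 0.74 ± 0.15 (0.10), called with no filter (0.015). Adm and Car9 were under the count minimum in all 4 groups.

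After 1 day of differentiation the responses were few with piericidin. It lowered 2 of 9 tested members and raised 0 (1.36% of genes lower, 1.39% higher), and oligomycin raised 2 and lowered 2 (10.6% higher, 10.1% lower). Ndrg1 read 97.8, 102 and 91.8 CPM with DMSO, 95.1, 90.0 and 99.7 CPM with piericidin and 229.5, 242 and 242 CPM with oligomycin (-0.03 ± 0.06 and 1.32 ± 0.06). Vegfa read 2.32, 2.56 and 2.39 CPM with DMSO and 7.16, 5.72 and 7.95 CPM with oligomycin (1.54 ± 0.24). P4ha1 fell by 0.32 ± 0.05 with each. Ankrd37 fell by 1.66 ± 0.28 with each, but it passed the count minimum only through the DMSO group, and its piericidin call was lost without DMSO replicate 3 (adjusted p = 0.055). Adm was not tested. With oligomycin the ISR markers went from 255 to 277 CPM to 1252 to 1274 CPM, and the proliferating markers from 244 to 271 CPM to 172 to 178 CPM with 5 of 6 called lower. With piericidin the ISR markers read 275 to 296 CPM, the proliferating markers 195.7 to 205 CPM with 0 of 6 called, and the undifferentiated markers 103 to 113 CPM against 95.5 to 98.1 CPM with DMSO. Their part in the day 1 values was not tested.

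Between the states in DMSO, day 1 cells were above luciferase myoblasts for 7 members and below for 1 (31.3% and 32.3% of all genes), myotubes were above day 1 cells for 8 and below for 0 (19.6% and 16%), and myotubes were above myoblasts for 8 and below for 0 (35.7% and 33.7%). Adm met the count minimum only in antimycin-treated myoblasts and DMSO myotubes, and Car9 only in day 1 and myotube groups, so their differences between states were partly built into their being tested. Without that pair, 5, 6 and 6 of 8 members were above. State cannot be told apart here from transgene and doxycycline, since the myoblasts were luciferase cells and the others untransduced. Car9 read 0.186, 0.212 and 0.186 CPM in myoblasts, 2.97, 2.38 and 2.78 CPM at day 1 and 26.9, 47.0 and 53.2 CPM in myotubes. Bnip3 read 25.8, 20.4 and 18.7 CPM, then 41.6, 46.9 and 49.7 CPM, then 151, 182 and 219 CPM. Vegfa was the member that went down at day 1 (-0.87 ± 0.25) and up again in myotubes (1.04 ± 0.25), so that myotubes and myoblasts gave 0.17 ± 0.23 (edgeR adjusted p = 0.52). Ankrd37 was called higher in myotubes than at day 1 (adjusted p = 0.016). This was lost without day 1 replicate 1 or 2 or myotube replicate 2 or 3 (adjusted p = 0.066, 0.067, 0.050 and 0.11). It was also lost with outer wells in the fit (0.24) and with no filter on low counts (0.114).

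The inhibitor effects differed between myotubes and luciferase myoblasts for 6 of 10 members with piericidin (46.5% of all genes), 6 with antimycin (47.9%) and 5 with oligomycin (29%). Adm and Ankrd37 met the count minimum of this fit only in groups where they are high, Adm in antimycin-treated luciferase myoblasts and DMSO myotubes and Ankrd37 in the 3 DMSO groups, so their terms were partly built into their being tested. Car9 entered through day 1 and myotube groups alone and was near 0 in myoblasts. Without these 3 genes the counts were 5, 4 and 4 of 7 members. Ndrg1 gave -5.01 ± 0.11, -5.61 ± 0.11 and -3.45 ± 0.10, since it rose in myoblasts and fell or stayed in myotubes. Vegfa gave -2.72 ± 0.32, -2.94 ± 0.31 and -1.37 ± 0.31. Egln3 gave 2.46 ± 0.27, 2.13 ± 0.27 and 0.98 ± 0.23, as it fell in both states but further in myoblasts. For Egln1 no difference was called, and for Car9 an uncalled term says nothing of a response in myoblasts. The term of Adm with piericidin (-2.32 ± 0.94, adjusted p = 0.045) was lost without any 1 of 8 libraries and rests on a few counts in the myoblasts. That of Bnip3 with oligomycin (-0.65 ± 0.20) was lost without oligomycin myoblast replicate 1 or DMSO myotube replicate 3 (adjusted p = 0.072 and 0.058).

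**Figure D4:**
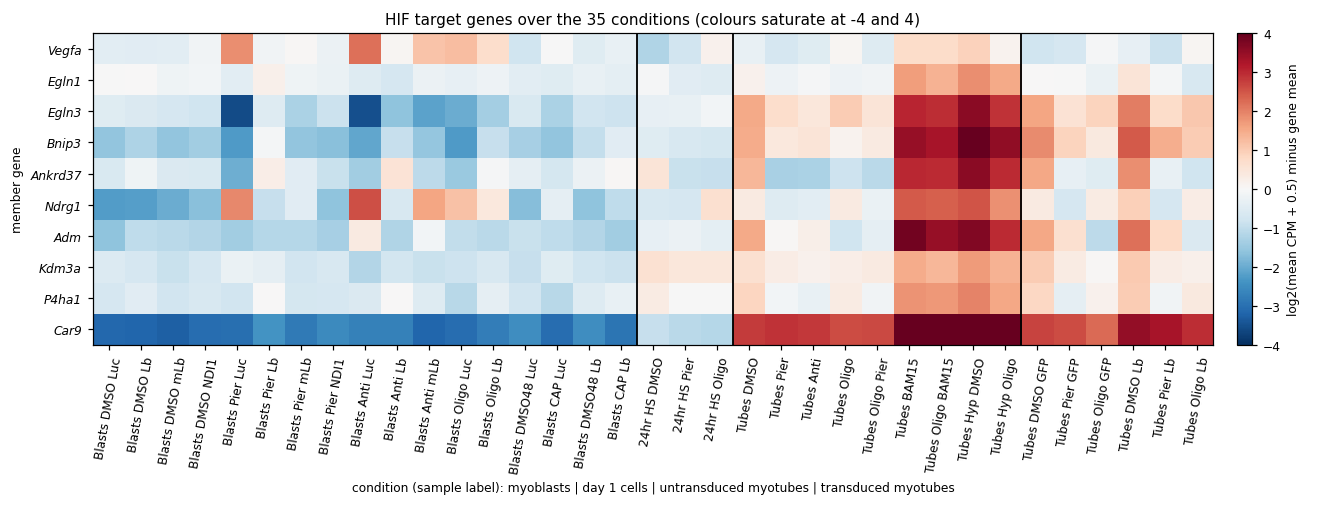
Heat map of the 10 HIF target genes (rows) over the 35 conditions (columns), coloured by log2(mean CPM + 0.5) minus the gene's mean over conditions, saturating at -4 and 4. The 5% oxygen and BAM15 columns of myotubes are high for all 10 genes, except Vegfa with oligomycin at 5% oxygen, which is near its mean, and in the luciferase myoblast columns with inhibitors Vegfa and Ndrg1 are high while Egln3, Bnip3 and Ankrd37 are low.

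Ordered by mean level over the 35 conditions, 7 members were highest in 5% oxygen DMSO myotubes, Adm in BAM15 myotubes (33.9 ± 1.40 CPM, SD, n = 3), and Vegfa (30.4 ± 3.18 CPM) and Ndrg1 (914 ± 7.90 CPM) in antimycin-treated luciferase myoblasts. The lowest conditions were spread out, with luciferase myoblasts and piericidin for Egln3 (2.84 ± 0.817 CPM), Bnip3 (13.0 ± 3.29 CPM) and Ankrd37 (0.521 ± 0.356 CPM), and luciferase myoblasts and DMSO for Ndrg1 and Adm. Within untransduced myotubes, 5% oxygen with DMSO was apart from the second group for 8 members. For Ndrg1 its samples overlapped those of BAM15, and for Adm the BAM15 samples overlapped those of 5% oxygen from above. BAM15 and oligomycin with BAM15 overlapped for Vegfa, Egln1, Egln3, Ankrd37 and P4ha1.

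Over the 9 group means of untransduced myotubes, the 45 pairs of members had Pearson correlations of 0.82 (Vegfa with Adm) to 0.99 (Egln1 with Bnip3), with a median of 0.96. Over the 13 myoblast groups, the 36 pairs of 9 members ran from -0.96 (Vegfa with Egln3) to 0.98 (Vegfa with Ndrg1), with a median of 0.081 and 17 pairs below 0. These describe groups that share controls and carry no test. The non-members most like the members' mean profile over the 9 myotube groups, among 8230 genes with a mean of at least 10 CPM, were Gm4735 (0.997), Bnip3l (0.995), Map2k1 (0.995), Fam162a (0.994) and Hilpda (0.994). Gm4735 is a predicted gene that may share reads with a near-identical copy, so its value is uncertain.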

How the data were processed

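Polyadenylated RNA from 96 C2C12 samples was made into Smart-seq2 libraries, which are not strand-specific. The authors estimated transcript abundance with kallisto 0.44 after bcl2fastq 2.20.0.422, summed it to genes and over sequencing runs, and deposited 1 table of estimated counts, in which 0 values were not whole. The submitters' notes name build mm10. Depth was 6458295 to 15366745 counts per library, which limits precision for members under a few CPM.

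Genes with at least 16 counts in every sample of at least 1 group entered edgeR 4.0.16 (R 4.3.3) with TMM scaling, 1 coefficient per group and quasi-likelihood tests. There were 6 fits and 42 comparisons, and p-values were adjusted by Benjamini-Hochberg over all genes tested, at a threshold of 0.05. Interaction terms tested differences between effects. The calculation was checked on simulated data. Standard errors were derived from the F statistic. Alternatives were DESeq2 1.42.0 and its size factors, no filter, only the groups compared, the replicate number as a block, outer wells as a covariate, and each library left out. The wells were inferred from a row and column code in each sample's description, which was read as a plate position. The labels do not say which plate it refers to. Replicate numbers did not pair the samples, since deviations of same-numbered samples had mean correlations of -0.041 to 0.054.

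The members and the lists of further genes were chosen with earlier results of these data known. All 10 members were described. From each list, up to 3 called genes in either direction with the largest log2 changes and a mean of at least 50 counts were named, with every ISR marker, and genes outside that rule (Egln2, Pfkfb4, Hif1a) were named after their values were seen. For Aldoa, which has 2 identifiers, the one with more counts was used. Deposited columns of no sample were 0 in number.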

Additional observations from a re-analysis of the deposited data

Results flagged for a closer look

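The results below were picked out because a test of the difference itself, the edgeR interaction term, found that a treatment changed a member by different amounts in 2 settings. All values are log2 differences of effects, with adjusted p under 0.05, and 50 were found over 10 comparisons. Comparisons share luciferase or DMSO samples, so neighbouring values are not independent.

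The effect of 5% oxygen was larger under oligomycin than under DMSO for Adm (2.15), Ankrd37 (1.81) and Bnip3 (0.88), and smaller for Vegfa (-1.21) and Ndrg1 (-0.66). In this fit Adm and Ankrd37 met the count minimum only in groups where they are high, so their terms were partly fixed by the filter.

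In LbNOX myoblasts the piericidin effect differed from that in luciferase myoblasts by -2.08 for Vegfa, 3.34 for Egln3, 1.88 for Bnip3, 2.49 for Ankrd37, -2.87 for Ndrg1 and 0.55 for P4ha1. For antimycin the terms were -2.20 (Vegfa), 2.18 (Egln3), 0.82 (Bnip3), 1.84 (Ankrd37), -3.25 (Ndrg1), -3.61 (Adm), 0.55 (Kdm3a, lost with no filter, adjusted p = 0.069) and 0.34 (P4ha1). Adm passed the count minimum only through the antimycin group of luciferase cells, whose height makes this term, so its value is no independent result. For oligomycin they were 1.03 (Bnip3), -0.78 (Ndrg1) and 0.53 (P4ha1), and for chloramphenicol 0.55 (P4ha1), a value that was lost without any 1 of its 8 libraries.

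In mitoLbNOX myoblasts the piericidin effect differed from luciferase cells by -1.88 for Vegfa, 2.66 for Egln3, 0.72 for Bnip3, 2.13 for Ankrd37 and -2.62 for Ndrg1. The antimycin effect differed by -1.10 (Vegfa), 1.68 (Egln3), 0.57 (Bnip3), -1.24 (Ndrg1) and 0.61 (Kdm3a). The Bnip3 value with antimycin was lost without any 1 of 6 of the 12 libraries, the highest adjusted p being 0.11 without luciferase DMSO replicate 1, and with outer wells in the fit (0.054). The LbNOX transcript was lower with antimycin than with DMSO in LbNOX cells (226 to 319 against 872 to 928 CPM) and mitoLbNOX cells (714 to 848 against 1717 to 1968 CPM), and its part in the antimycin terms was not tested.

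Between untransduced myotubes and luciferase myoblasts the piericidin effect differed by -2.72 for Vegfa, 2.46 for Egln3, -5.01 for Ndrg1, -2.32 for Adm, -0.62 for Kdm3a and -0.86 for P4ha1. The antimycin effect differed by -2.94 (Vegfa), 2.13 (Egln3), -1.98 (Ankrd37), -5.61 (Ndrg1), -4.64 (Adm) and -1.25 (P4ha1), and the oligomycin effect by -1.37 (Vegfa), 0.98 (Egln3), -0.65 (Bnip3), -3.45 (Ndrg1) and -4.22 (Adm). In this fit Adm met the count minimum only in antimycin-treated luciferase myoblasts and DMSO myotubes, and Ankrd37 only in the DMSO groups, so the terms of this pair were partly fixed by the filter.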

How the results depend on the processing

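No called member changed direction under any alternative, and the DESeq2 size factors moved no count of called members by over 1.5 times. Percentages below are of all genes tested under the same setting. With no filter, LbNOX against luciferase myoblasts gave 0 called members (1 in the fit reported) beside 1.15%, and mitoLbNOX against luciferase 1 (0) beside 1.3%. Chloramphenicol in LbNOX cells gave 2 (1) beside 2.09%, its interaction 3 (1) beside 1.33% and LbNOX against GFP myotubes 4 (1) beside 0.481%. DESeq2 gave 2 for that interaction (3.15% of genes), 4 for LbNOX against GFP (0.303%), and 1 for piericidin at day 1 (2 reported, 4.61% of genes). With outer wells as a covariate, oligomycin in LbNOX myoblasts gave 5 (3) beside 36.2%, piericidin in mitoLbNOX myoblasts 1 (2) and mitoLbNOX against luciferase 1 (0) beside 1.95%. Chloramphenicol in luciferase cells gave 1 (4) beside 6.93% and its interaction 2 (1) beside 0.709%. By the inferred positions all day 1 samples were in outer wells, so this fit was not made for their 2 comparisons. Fitting only the groups compared gave 0 for LbNOX against luciferase (1.49% of genes), 1 for chloramphenicol in luciferase cells (5.57%) and 0 in LbNOX cells (0.613%). It gave 0 for LbNOX against GFP (0% of genes) and 2 for piericidin in GFP myotubes (6 reported). For the latter 0.225% of all genes were called, against 3.08% in the fit reported. The cause of these moves was not tested.

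Replicate numbers are shared by the groups but nothing pairs the samples. With the replicate number as a block, mitoLbNOX against luciferase gave 1 (1.99% of genes) and chloramphenicol in LbNOX cells 0 (0.667%). The chloramphenicol interaction gave 0 (0.188%) and LbNOX against GFP 0 (0%), and no other count moved by over 1.5 times. For the 2 pairs of groups of 2 whose same-numbered samples correlated below -0.1 (-0.23 and -0.33), a block with crossed numbers, chosen after seeing the data, called 3 members (938 genes) for chloramphenicol in luciferase cells and 6 (324 genes) for piericidin in GFP myotubes.

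With 1 library left out, counts ranged from 4 to 6 (8 reported) for oligomycin within 5% oxygen, 3 to 6 (7) for antimycin in LbNOX myoblasts, 1 to 2 for piericidin in mitoLbNOX myoblasts, 0 to 1 for LbNOX and for mitoLbNOX against luciferase, 1 to 3 (4) for chloramphenicol in luciferase cells, 0 to 1 in LbNOX cells and for the interaction, 0 to 1 for LbNOX against GFP, and 1 to 2 for piericidin at day 1. With 2 samples a group, the lone sample was assumed to vary like the others in the fit.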
